A study of Mus musculus with 4 samples.

Results

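The interferon-stimulated genes of mouse embryonic fibroblasts (MEFs) were followed through the induction of Mitf, the transcription factor that governs the melanocyte lineage. The 41 genes were listed by name, with no measured value in the rule, and all 41 were found among the 22835 genes of the exon table. Of these, 31 reached 10 RPKM (reads scaled by exon length and by the aligned reads of the library) on their highest exon in at least 1 library, as did 13587 of all genes.

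RNA was sequenced from 1 library per condition. WT MEF came from wild-type MEFs at passage 3. Dox (-) came from untreated Mitf knock-in MEFs at passage 5, which carry the reverse tet-transactivator in the Rosa26 locus and the melanocyte form of Mitf, M-Mitf, under Dox control at the collagen locus Col1a1. Dox (+) came from the same kind of knock-in MEFs, also at passage 5, after 6 days of Dox. Both knock-in libraries therefore share the transgenes, the passage and the origin. The knock-in cells were made by injecting targeted KH2 embryonic stem cells into BDF2 blastocysts, so the chimeric mid-gestation embryos from which the MEFs were taken also hold host cells. The knock-in cells also carry mCherry and puromycin resistance, which the paper says made it easy to purify them from chimeric cultures. Whether the sequenced MEFs were purified is not given in the sources used here. All 3 cultures were grown in DMEM with serum. Primary melanocytes, the fourth condition of the study, were not analysed here. The values of the library labelled MEF are not those of the MEF column in the study's supplementary data, so comparisons with WT MEF describe this library. Passage, genotype and embryo cannot be told apart between WT MEF and the knock-in libraries.

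The depth of each library was 45000000 aligned reads in WT MEF and Dox (-) and 44000000 in Dox (+), recovered from the whole-read steps of the RPKM values. Mitf stood at 1.52 RPKM in WT MEF, 30.8 in Dox (-) and 1544 in Dox (+), in the order of the labels. The collagen genes Col1a1, Col1a2 and Col3a1, markers of fibroblasts, had a lowest level of 847 RPKM, but of the 10 fibroblast markers Lum was at 6.07 RPKM in WT MEF and 226 in Dox (-), and Pdgfra at 18.9 and 86.6. Markers of another cell type also differed between the libraries. Each of the 15 macrophage markers passed a 4-fold difference, higher in Dox (-) against WT MEF and lower in Dox (+) against Dox (-), with a summed level of 60.2 RPKM in WT MEF, 16422 in Dox (-) and 568.5 in Dox (+). In bulk RNA, fewer cells of a type and less RNA per cell cannot be told apart.

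Interferons are secreted proteins that warn cells of viral infection. Type I interferon binds the receptor pair Ifnar1 and Ifnar2, whose kinases Jak1 and Tyk2 phosphorylate Stat2, which joins Irf9 in a complex that binds the interferon-stimulated response element (ISRE) in front of target genes. Interferon gamma acts through a separate receptor and the gamma-activated sequence (GAS). The targets include sensors of viral nucleic acid, enzymes that degrade RNA or block translation, GTPases, and the transcription factors of the pathway itself, and many keep a low tonic level in cultured fibroblasts without added interferon.

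The promoters of 6 members are shown because they carry the shared element, with the ISRE core in capitals on either strand. RefSeq promoter windows (GRCm38.p6, 250 bases before to 50 after the start) were given for 30 of the 41 members, and the stretches run from 40 bases before the first core to 40 bases after the last, 5′ to 3′ on the strand of the gene.
Isg15, chr4:156200835-156200936, minus strand: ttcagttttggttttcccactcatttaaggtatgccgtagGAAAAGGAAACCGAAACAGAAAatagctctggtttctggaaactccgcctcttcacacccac
Ifit1, chr19:34640745-34640853, plus strand: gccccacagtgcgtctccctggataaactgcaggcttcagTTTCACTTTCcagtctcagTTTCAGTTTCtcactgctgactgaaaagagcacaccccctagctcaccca
Ifit3, chr19:34583333-34583456, plus strand: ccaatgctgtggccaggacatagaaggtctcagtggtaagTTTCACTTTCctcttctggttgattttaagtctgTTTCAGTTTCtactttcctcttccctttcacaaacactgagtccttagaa
Oas1a, chr5:120907490-120907585, minus strand: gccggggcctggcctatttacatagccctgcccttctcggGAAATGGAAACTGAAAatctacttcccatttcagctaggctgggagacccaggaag
Rsad2, chr12:26456523-26456612, minus strand: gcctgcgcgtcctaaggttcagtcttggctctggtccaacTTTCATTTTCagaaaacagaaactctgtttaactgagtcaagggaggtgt
Irgm1, chr11:48871395-48871490, minus strand: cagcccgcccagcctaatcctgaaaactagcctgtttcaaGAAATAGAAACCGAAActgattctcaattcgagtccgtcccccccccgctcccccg
In Isg15 3 cores overlapped, in Oas1a and Irgm1 2 cores overlapped, and in Ifit1 and Ifit3 the 2 cores lay apart. Rsad2 held 1 core by this search.

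The ISRE core was searched as GAAANNGAAA on both strands and the GAS core as TTCNNNGAA, which reads the same on both strands. An ISRE core was found in 16 of the 30 members with a window (53.3%), against 3.99% of the 27025 genes with a window and 3.44% of all 32851 windows. More than 1 core was found in 7 of the 16. A GAS core was found in 9 members (30%), against 9.55% of all genes and 8.3% of all windows. The members with and without an ISRE core had similar medians between Dox (+) and Dox (-). The 16 genes with it had a median 2.22-fold lower read sum in Dox (+), and the 14 without it had a median of 2.42-fold. Ifi44 and Oasl2 had no core in the window and were among the genes with large differences, while Ddx58 and Stat2 had 1 core each and differed little or moderately. A match describes letters and says nothing of binding.

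Most members were highest in Dox (-). Of all 41 genes, 34 had their highest exon level in Dox (-), against 33.2% of all 22047 genes with a level above 0. Another 5 were highest in WT MEF (Ddx58, Oasl1, Irf1, Stat2 and Irgm1), 1 was highest in Dox (+) (Trim25), and Ifih1 had the same level in WT MEF and Dox (-). The place of Stat2 rests on 1 exon of 18 bases, with 64 reads in WT MEF and 49 in Dox (-). On 22 of its 24 exons Stat2 was higher in Dox (-) than in WT MEF. On summed reads Stat2 was higher in Dox (-), and Ddx58 and Oasl1 did not differ between WT MEF and Dox (-) beyond counting error. Of the 34, Ifit2 had 1923 summed reads in WT MEF and 1754 in Dox (-). Parp9 did not differ between WT MEF and Dox (-) beyond counting error, nor did Ifi35 between the knock-in libraries. Of the 31 genes above 10 RPKM in any library, 25 were highest in Dox (-), 4 in WT MEF and 1 in Dox (+), against 25%, 27.8% and 47.1% of all genes above that level. All 31 passed in Dox (-) and 9 of them passed there alone, so the place of these 9 was fixed by the threshold. Of the 22 genes above 10 RPKM in WT MEF or Dox (+), 16 were highest in Dox (-), against 21.2% of all genes above 10 RPKM in those libraries. The number of members above 10 RPKM was 21 in WT MEF, 31 in Dox (-) and 19 in Dox (+). All 15 macrophage markers were also highest in Dox (-), and their part in the result was not tested.

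**Figure D1:**
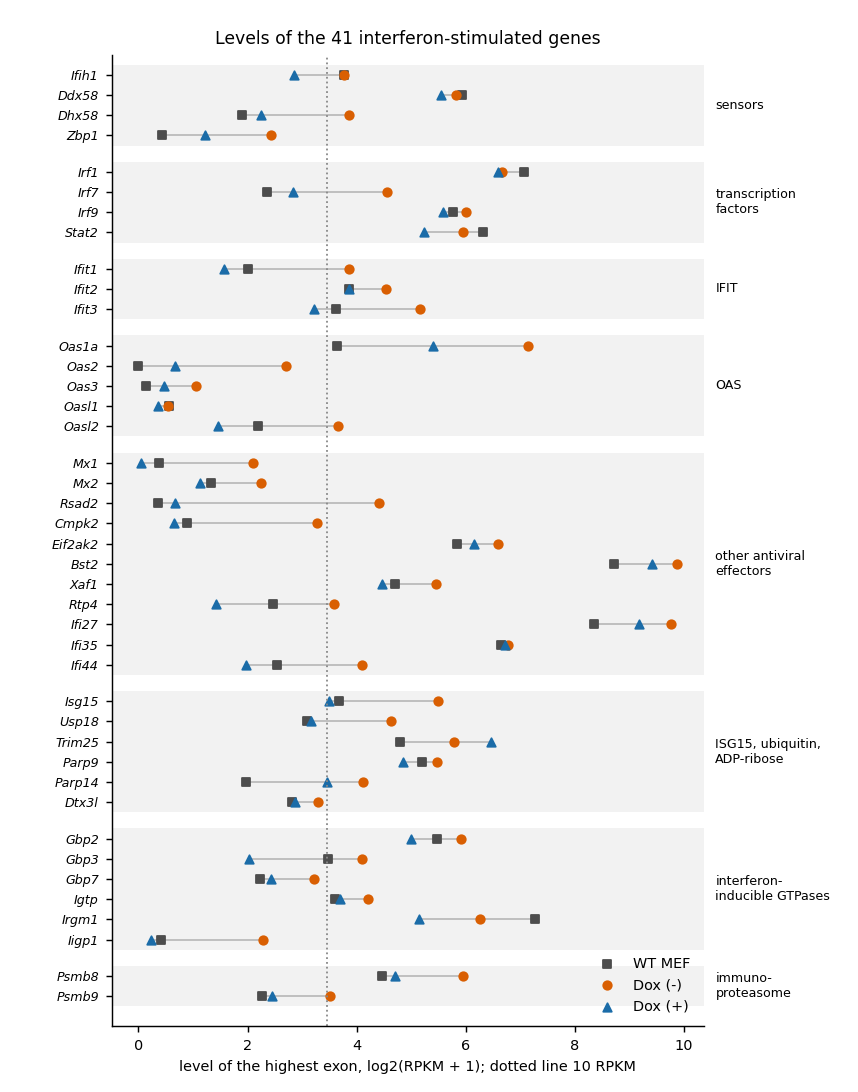
Level of each of the 41 genes in the 3 libraries, as log2(RPKM + 1) of its highest exon, grouped by role, with 1 point per library and a dotted line at 10 RPKM. The Dox (-) point is the rightmost in 34 of the 41 genes.

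The comparison of Dox (+) with Dox (-) asks how the genes stood after 6 days of Dox, with Mitf induced. The study has no library of Dox-treated wild-type MEFs, so Dox itself and Mitf cannot be told apart. A gene was called different above a 4-fold ratio and 10 RPKM in at least 1 of the 2 libraries. Of the 31 members above that level, 8 were called lower in Dox (+) and 0 higher. The 8 were Ifit1, Ifit3, Isg15, Oasl2, Rsad2, Ifi44, Rtp4 and Gbp3, and all but Isg15 passed 10 RPKM in Dox (-) alone, as 12 of the 31 did, so these could be called in 1 direction only. Of all 13307 genes above that level, 5.41% were called lower and 1.64% higher. At a 2-fold ratio 17 members were lower and 0 higher, against 11.1% and 10.8% of all genes. The median log2 fold change of the 31 members was -0.98, while that of all genes was 0.23. The 15 macrophage markers had a median of -5.28 in the same comparison, and their part in the result was not tested. Since each condition had 1 library, the spread between cultures is unknown, no p-value is given, and the 95% intervals below cover counting error only.

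Reads summed over the exons of each gene gave more members a value, since many were low in RPKM. With at least 100 reads in 1 of the 2 libraries, 40 members could be compared, and 16 were above 4-fold lower in Dox (+), against 7.31% of 15615 genes. None was above 4-fold higher, against 1.62% of all genes. Besides 8 genes already named, these were Cmpk2, Dhx58, Iigp1, Mx1, Mx2, Oas2, Oas3 and Zbp1. All of these added genes, and Rsad2, Rtp4 and Ifi44, had under 100 reads in Dox (+). They passed the minimum through Dox (-) alone and could be called in 1 direction only. The interval lay below 1 for 38 of the 41 members, and it included 1 for Irf1, Ifi35 and Trim25. Among genes with at least 100 reads it lay below 1 for 37 of 40 members, against 38.7% of all genes, and above 1 for 0 members, against 51.2%. The exons of 15 members overlap those of another annotated gene and may share reads with it. Single exons mostly had the same direction, since 286 of the 317 member exons with at least 20 reads over both libraries were lower in Dox (+), against 42.5% of the exons of all genes. Exons of 1 gene are not independent.

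**Figure D2:**
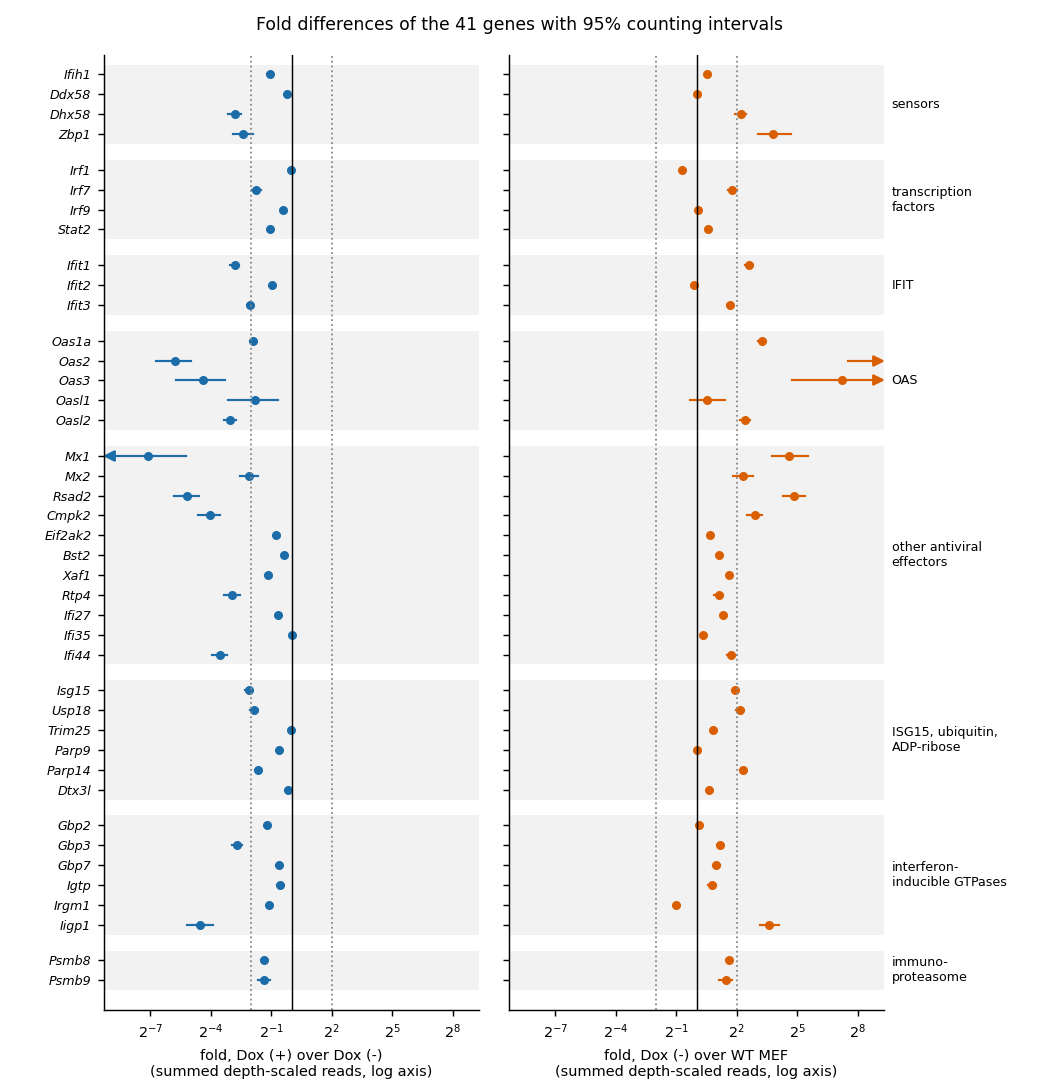
Fold of the summed reads of each member, in Dox (+) over Dox (-) on the left and in Dox (-) over WT MEF on the right, on a log axis with 95% counting intervals. Dotted lines mark 4-fold, arrows mark intervals that run past the axis, and Oas2 has no point on the right because WT MEF had 0 reads. On the left 38 intervals lie below 1, and on the right 35 lie above 1.

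The sensors of viral nucleic acid differed in level and in the size of the difference. Ifih1, which encodes the sensor MDA5 for long double-stranded RNA, had 859 summed reads in WT MEF, 1253 in Dox (-) and 591 in Dox (+), a 2.07-fold (1.88 to 2.29) lower value in Dox (+). Ddx58, which encodes RIG-I, had 4141, 4249 and 3598 reads, and was 1.16-fold (1.10 to 1.21) lower. Between WT MEF and Dox (-), Ifih1 was 1.46-fold (1.34 to 1.59) higher in Dox (-), and Ddx58 did not differ beyond counting error. Dhx58, which encodes their relative LGP2, had 146, 667 and 92 reads, 4.57-fold (3.81 to 5.50) higher in Dox (-) than in WT MEF and 7.09-fold (5.69 to 8.92) lower in Dox (+) than in Dox (-). Its exons overlap the antisense gene Dhx58os. Zbp1, a sensor of Z-form nucleic acid, had 15, 209 and 39 reads, 5.24-fold (3.71 to 7.58) lower in Dox (+).

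Among the transcription factors, Irf7 had the largest difference. Irf7, the factor that amplifies interferon production, stood at 4.14 RPKM on its highest exon in WT MEF, 22.6 in Dox (-) and 6.11 in Dox (+), with 215, 737 and 216 summed reads, and was 3.34-fold (2.86 to 3.90) lower in Dox (+) than in Dox (-). Some of its exons overlap Phrf1. Stat2, the transducer of the type I signal, had 3123, 4631 and 2148 summed reads and was 2.11-fold (2.002 to 2.22) lower. Irf9, the DNA-binding part of the complex, had 2919, 3095 and 2251 reads and was 1.34-fold (1.27 to 1.42) lower. Irf1 behaved otherwise. It had 3098 reads in WT MEF, 1856 in Dox (-) and 1759 in Dox (+), so that WT MEF was the highest and the knock-in libraries were within counting error of each other, at 1.03-fold (0.966 to 1.10).

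Ifit1, Ifit2 and Ifit3, neighbouring genes on chromosome 19 whose products bind viral RNA or each other and restrain translation, differed from each other in size. Ifit1 had 262 reads in WT MEF, 1609 in Dox (-) and 222 in Dox (+), 7.09-fold (6.16 to 8.19) lower in Dox (+) than in Dox (-). Ifit3 had 878, 2732 and 631 reads, 4.23-fold (3.88 to 4.62) lower. Ifit2 had 1923, 1754 and 892 reads, 1.92-fold (1.77 to 2.09) lower in Dox (+), and it was the only 1 of the 3 that was not higher in Dox (-) than in WT MEF on summed reads, at 0.912-fold (0.854 to 0.974), while its highest exon stood at 13.4 RPKM in WT MEF and 22.2 in Dox (-). Ifit3 has near-identical relatives in the same cluster, so its reads may be shared with them.

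The oligoadenylate synthases make a short signal nucleotide that activates RNase L. Oas1a stood at 11.5 RPKM in WT MEF, 141 in Dox (-) and 41.3 in Dox (+) on a short exon, with 193, 1824 and 476 summed reads, 3.75-fold (3.38 to 4.15) lower in Dox (+). In Dox (+) it stayed above its WT MEF value, by 2.52-fold (2.13 to 3.00). Oas2 had 0 reads in WT MEF, 674 in Dox (-) and 12 in Dox (+), which was 54.9-fold (31.2 to 107) lower in Dox (+) than in Dox (-) and at least 225-fold higher in Dox (-) than in WT MEF when the 0 is set to the floor of 3 reads. The counting interval of that ratio, which also takes in the error of the Dox (-) reads, had a lower limit of 182-fold. Oas3 had 1, 150 and 7 reads, 20.9-fold (9.92 to 53.0) lower in Dox (+). Its ratio of Dox (-) to WT MEF, 150-fold, had an interval of 26.5 to 5964 because of the single read. Oasl2, a synthase-like gene, had 160, 849 and 100 reads, 8.30-fold (6.74 to 10.3) lower. Oasl1, with 20, 29 and 8 reads, was too low to be compared at 100 reads. The Oas1 relatives are alike in sequence, and how reads with several alignments were treated is not given in the sources used here.

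Of the other antiviral effectors, 6 of 11 were above 4-fold lower in Dox (+) on summed reads, against the 7.31% of all genes given above. All 6 had under 100 reads in Dox (+), so they could be called in 1 direction only. Rsad2 encodes viperin, an enzyme that makes a chain-terminating nucleotide, and it had 30 reads in WT MEF, 851 in Dox (-) and 23 in Dox (+). That was 36.2-fold (23.9 to 57.4) lower in Dox (+) than in Dox (-), and all 6 of its exons were lower. Its neighbour on chromosome 12, Cmpk2, a mitochondrial nucleotide kinase, had 71, 526 and 31 reads and was 16.6-fold (11.5 to 24.7) lower. Both stood low in the outer libraries and high in Dox (-). Mx1, a dynamin-like GTPase against influenza virus, had 12, 284 and 2 reads, a ratio of 139-fold with an interval of 38.1 to 1152. Mx2 had 46, 226 and 52 reads and was 4.25-fold (3.13 to 5.86) lower. The Mx genes are defective in many laboratory strains, and the 2 genes are alike in sequence. Ifi44 had 248, 824 and 68 reads, 11.8-fold (9.24 to 15.4) lower in Dox (+) than in Dox (-), and it also lay below WT MEF, at 0.280-fold (0.211 to 0.368). Rtp4, a chaperone of receptors with antiviral activity, had 236, 505 and 64 reads, 7.71-fold (5.94 to 10.2) lower.

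Bst2 and Ifi27, the effectors of highest level, differed less. Bst2, or tetherin, which holds budding virus at the cell surface, stood at 419 RPKM in WT MEF, 934 in Dox (-) and 684 in Dox (+), and was 1.27-fold (1.23 to 1.31) lower in Dox (+) on summed reads. Ifi27, at 326, 869 and 581 RPKM, was 1.59-fold (1.55 to 1.63) lower. Both stayed above WT MEF in Dox (+), Bst2 by 1.73-fold (1.66 to 1.81) and Ifi27 by 1.59-fold (1.54 to 1.64). Eif2ak2, the RNA-activated kinase PKR that stops translation, had 4188, 6637 and 3821 reads, and was 1.70-fold (1.63 to 1.77) lower. Xaf1, which promotes apoptosis, had 728, 2242 and 962 reads, and was 2.28-fold (2.11 to 2.46) lower. Ifi35, with 2428, 3024 and 2997 reads, did not differ beyond counting error between the knock-in libraries, where the fold of Dox (+) over Dox (-) was 1.01.

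Isg15, the ubiquitin-like protein that is joined to other proteins during the response, had 398 reads in WT MEF, 1491 in Dox (-) and 336 in Dox (+), 4.34-fold (3.85 to 4.90) lower in Dox (+). On its highest exon it stood at 11.8, 43.9 and 10.3 RPKM. Usp18, which removes Isg15 and damps the receptor, had 233, 1032 and 276 reads and was 3.66-fold (3.20 to 4.19) lower. Both were highest in Dox (-). Against WT MEF, Usp18 was higher in Dox (+), at 1.21-fold (1.01 to 1.45), and Isg15 did not differ beyond counting error. Parp14, a mono-ADP-ribosyl transferase, had 500, 2477 and 760 reads, 3.19-fold (2.94 to 3.46) lower. Parp9 and its partner, the ubiquitin ligase Dtx3l, share overlapping exons in a head-to-head arrangement on chromosome 16, and reads were not stated to be counted by strand. Parp9 was 1.53-fold (1.44 to 1.64) lower and Dtx3l 1.139-fold (1.05 to 1.24). Trim25, the ubiquitin ligase that acts on RIG-I, was the only member with a higher highest-exon level in Dox (+) than in Dox (-). Its highest exon, of 24 bases, stood at 26.9 RPKM in WT MEF, 53.9 in Dox (-) on a longer exon and 87.1 in Dox (+), but its summed reads were 3088, 5354 and 5110, and the fold of Dox (-) over Dox (+), 1.02 (0.986 to 1.06), included 1.

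The interferon-inducible GTPases act on membranes around intracellular pathogens. Iigp1 had 42 reads in WT MEF, 514 in Dox (-) and 22 in Dox (+), 22.8-fold (14.9 to 36.8) lower in Dox (+). Gbp3 had 419, 941 and 143 reads, 6.43-fold (5.39 to 7.73) lower in Dox (+) than in Dox (-) and also below WT MEF at 0.349-fold (0.287 to 0.423). Gbp2 had 3017, 3268 and 1393 reads, 2.29-fold (2.15 to 2.44) lower, with WT MEF and Dox (-) close together. Gbp7 and Igtp were 1.54-fold (1.37 to 1.73) and 1.46-fold (1.29 to 1.65) lower. Irgm1, a regulator of the other GTPases, differed in order from most members. It had 14750 reads in WT MEF, 7253 in Dox (-) and 3300 in Dox (+), so that it was highest in WT MEF and lowest in Dox (+), although its promoter window shown above holds 2 overlapping ISRE cores. The Gbp genes lie in 1 cluster with close relatives, and Igtp overlaps Irgm2, so their reads may be shared.

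The immunoproteasome subunits, which alter the peptides offered to T cells, had similar differences. Psmb8 had 533 reads in WT MEF, 1633 in Dox (-) and 622 in Dox (+), 2.57-fold (2.34 to 2.82) lower in Dox (+). Psmb9 had 122, 331 and 125 reads, 2.59-fold (2.10 to 3.21) lower. The exons of Psmb9 overlap those of Tap1, and those of Psmb8 an antisense gene.

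The comparison of Dox (-) with WT MEF sets the untreated knock-in cells beside wild-type cells. It shares the Dox (-) library with the comparison above, so a value of that library enters both. Of the 31 members above 10 RPKM in either library, 6 were called higher in Dox (-) (Ifit1, Oas1a, Rsad2, Irf7, Dhx58 and Parp14) and 0 lower, and 5 of the 6, all but Oas1a, passed 10 RPKM in Dox (-) alone. Of all 13234 genes above that level 8.26% were called higher and 1.21% lower. At a 2-fold ratio 17 members were higher, against 17.3% of all genes, and 1 was lower (Irgm1), against 7.93%. The median log2 fold change was 1.13 in the members and 0.01 in all genes. On summed reads 14 of 40 members were above 4-fold higher, against 10.5% of 15581 genes, and 0 were lower, against 1.39%. Of the 14, Cmpk2, Iigp1, Mx1, Mx2, Oas2, Oas3, Rsad2 and Zbp1 had under 100 reads in WT MEF. They passed the minimum of 100 reads through Dox (-) alone and could be called in 1 direction only. The interval lay above 1 for 35 of these 40, against 48.7% of all genes, and below 1 for 3, against 41%. On the last exon 9 of 35 were above 4-fold higher, against 8.62%, and 0 lower, against 1.23%. The largest ratios with more than 3 reads in WT MEF were those of Rsad2, at 28.4-fold (19.7 to 42.3), and Mx1, at 23.7-fold (13.3 to 46.4). The summed level of the 15 macrophage markers was also far higher in Dox (-), with Fcgr1 at 0 in WT MEF, and its part in the result was not tested.

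Between Dox (+) and WT MEF the fewest members were called. Of the 22 members above 10 RPKM, 0 were called higher in Dox (+) and 1 lower, Irgm1, which had 0.229-fold (0.220 to 0.238) of its WT MEF reads. Of all 12941 genes 6.55% were called higher and 3.4% lower, so the members' counts at 4-fold were near or under the background. At a 2-fold ratio 3 members were higher and 4 lower, against 20.2% and 8.98% of all genes. The median log2 fold change was -0.18 in the members and 0.27 in all genes. On summed reads 0 of 32 members were above 4-fold higher, against 7.22% of 15084 genes, and 1 was lower, against 4.08%. Within counting error the members were not equal in both libraries, since the interval lay above 1 for 14 genes and below 1 for 20, and it included 1 for 7. With at least 100 reads it lay above 1 for 12 of 32 members, against 57.7% of all genes, and below 1 for 16, against 34.1%. On the last exon 1 of 23 members was above 4-fold higher and 1 lower, against 5.05% and 4.57%.

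**Figure D3:**
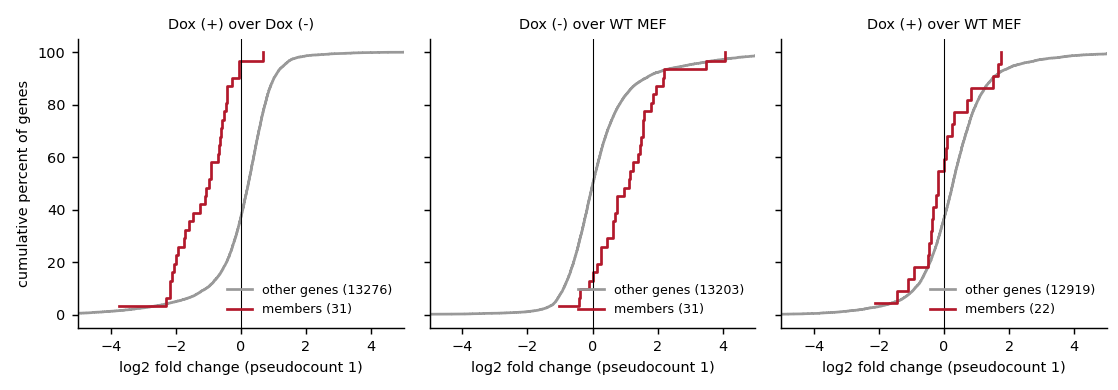
Cumulative percent of genes against the log2 fold change of the highest exon (pseudocount of 1 RPKM), for members and for all other genes above 10 RPKM in 1 of the 2 libraries. The curve of the members lies left of the other genes in Dox (+) over Dox (-), with a median of -0.98, and right of them in Dox (-) over WT MEF, with a median of 1.13.

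The members that were low in wild-type cells had the larger differences after Dox. The 20 members at or below 10 RPKM in WT MEF, a library that is not in the comparison of Dox (+) with Dox (-), had a median log2 fold change of -1.67 in it, and the 21 members above 10 RPKM had a median of -0.68. All genes were ordered the same way. Among those above 10 RPKM in 1 of the knock-in libraries, the median was -0.35 for the 1720 genes at or below 10 RPKM in WT MEF and 0.26 for the 11587 genes above it. Under that filter the 10 members low in WT MEF had a median of -1.93, but genes low in WT MEF pass it through a knock-in library only. Of these 10 members, 9 passed in Dox (-) alone, so the direction of their difference was fixed by the filter and this median adds nothing to it. Of the 21 members above 10 RPKM in WT MEF, 8 were above 2-fold lower in Dox (+), against 6.9% of all genes above that level. Genes are not independent replicates, the values share their libraries, and no p-value is given.

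Exons along the transcript did not all give the same ratio. In 87.1% of 10279 genes with at least 4 exons and 20 reads in each place, the exons before the midpoint had a higher ratio of Dox (+) to Dox (-) than the last exon had, by a median of 0.35 on the log2 scale. The median log2 fold change of all genes was 0.31 on the first exons and -0.06 on the last exon, so the shift of 0.23 between these libraries on the highest exon varied with position. In 17 of 23 members the difference had the same direction, with a median of 0.40, and the members' own medians were -0.87 on the first exons and -0.98 on the last exon. Trim25 was 0.23 on the first exons and -0.20 on the last, where its 4099-base exon holds most reads. Ddx58 was 0.06 and -0.47, and Dtx3l was 0.64 and -0.44. For these 3 genes the direction depends on the exon counted. Parp14, at -1.28 and -2.23, and Stat2, at -0.90 and -1.57, were lower in Dox (+) at both ends. On the last exon alone 15 of 35 members were above 4-fold lower in Dox (+), against 6.48% of all genes, and 0 were higher, against 1.12%. The members' median on it was -1.57.

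**Figure D4:**
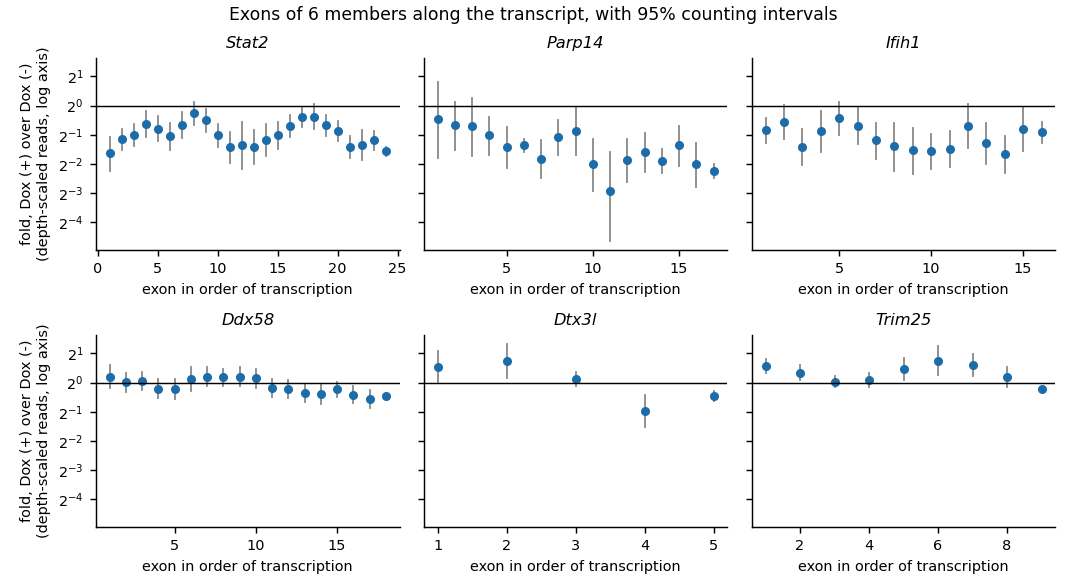
Fold of Dox (+) over Dox (-) in depth-scaled reads for each exon of 6 members, in order of transcription on the horizontal axis, on a log axis with 95% counting intervals. Stat2, Parp14 and Ifih1 lie mostly below 1 along their length, while Ddx58, Dtx3l and Trim25 pass from above 1 in early exons to below 1 in the last.

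The receptors and kinases of the pathway held no called gene in this comparison. Of 9 receptor subunits and kinases listed, 8 passed 10 RPKM and 0 were called in Dox (+) against Dox (-) in either direction. Ifnar1 stood at 194, 282 and 235 RPKM and Ifnar2 at 287, 260 and 297, and the reads of Ifnar2 did not differ beyond counting error between the knock-in libraries. The gamma receptor subunits were at 65.2, 86.8 and 64.0 RPKM for Ifngr1 and at 113, 211 and 270 for Ifngr2. Jak1 stood at 291, 379 and 527 RPKM, Jak2 at 52.2, 70.8 and 47.0, and Tyk2 at 27.7, 38.5 and 40.1. The interferon lambda receptor subunit Ifnlr1 had 10, 101 and 69 reads, and Il10rb, its partner, was at 69.5, 110 and 88.0 RPKM. Of the 9 genes, 5 were highest in Dox (-) and 4 in Dox (+) (Ifnar2, Ifngr2, Jak1 and Tyk2), the library where 47.1% of all genes above 10 RPKM were highest.

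Of 9 interferon genes listed, 3 were found in the table, and none passed 10 RPKM. Ifng had 0 reads in all 3 libraries, Ifne had 4 reads in WT MEF, and Ifnk had 6 reads in WT MEF and 6 in Dox (-). A count of 0 allows up to 3 reads. The other ligands were not analysed here. Among 5 negative regulators 0 were called at 4-fold in Dox (+) against Dox (-). Socs3, an inhibitor of cytokine receptors, stood at 5.56, 20.5 and 23.5 RPKM and was called higher in Dox (+) than in WT MEF. Socs1, which blocks the Jak kinases, had 248, 362 and 373 reads.

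The sensing receptors, adaptors and interferon regulatory factors held a small group with large differences. Of 12 above 10 RPKM, Irf8, Tlr7 and Aim2 were called lower in Dox (+) than in Dox (-), and 0 were called higher. Of all genes, 5.41% were called lower and 1.64% higher. Irf8, Tlr7 and Aim2 passed 10 RPKM in Dox (-) alone, so they could be called in 1 direction only. Irf8, a factor of the myeloid lineage, had 6 reads in WT MEF, 1540 in Dox (-) and 83 in Dox (+). Tlr7, the endosomal receptor of single-stranded RNA, had 21, 2441 and 40 reads, and Aim2, a sensor of cytosolic DNA, had 4, 682 and 45. These genes are known to be used by macrophages. The general adaptors and kinases were not called, with Mavs at 24.2, 34.8 and 61.2 RPKM, Tbk1 at 157, 123 and 104, and Irf3 at 150, 111 and 131.

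A further list of 55 interferon-stimulated genes outside the 41 also held calls in 1 direction. Of 47 above 10 RPKM, 13 were called lower in Dox (+) than in Dox (-) and 0 higher, against the 5.41% and 1.64% of all genes above, with a median log2 fold change of -0.61. Of the 13, Cxcl10, Gbp4, Phf11b, Phf11d, Slfn2, Slfn5, Sp100 and Tgtp1 passed 10 RPKM in Dox (-) alone. They could be called in 1 direction only. Cxcl10, a chemokine for T cells, stood at 2.96 RPKM in WT MEF, 30.1 in Dox (-) and 1.43 in Dox (+). Phf11b, a zinc finger gene, stood at 11.6, 55.6 and 0.947 RPKM, and Gbp10 at 10.8, 91.0 and 13.2. The abundant genes were of both kinds. Ifitm3, which blocks viral entry, was at 496, 1122 and 578 RPKM, and B2m, the light chain of MHC class I, at 9204, 8949 and 8145 RPKM, while Trim30a stood at 101, 137 and 21.7 RPKM and Lgals3bp at 133, 358 and 139. In Dox (-) against WT MEF 9 of the 47 were called higher and 0 lower, against 8.26% and 1.21% of all genes. Of the 9, Cxcl10, Slfn2, Slfn5, Sp100 and Uba7 passed 10 RPKM in Dox (-) alone and could be called in 1 direction only. At a 2-fold ratio 17 were higher and 4 lower, against 17.3% and 7.93% of all genes.

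**Figure D5:**
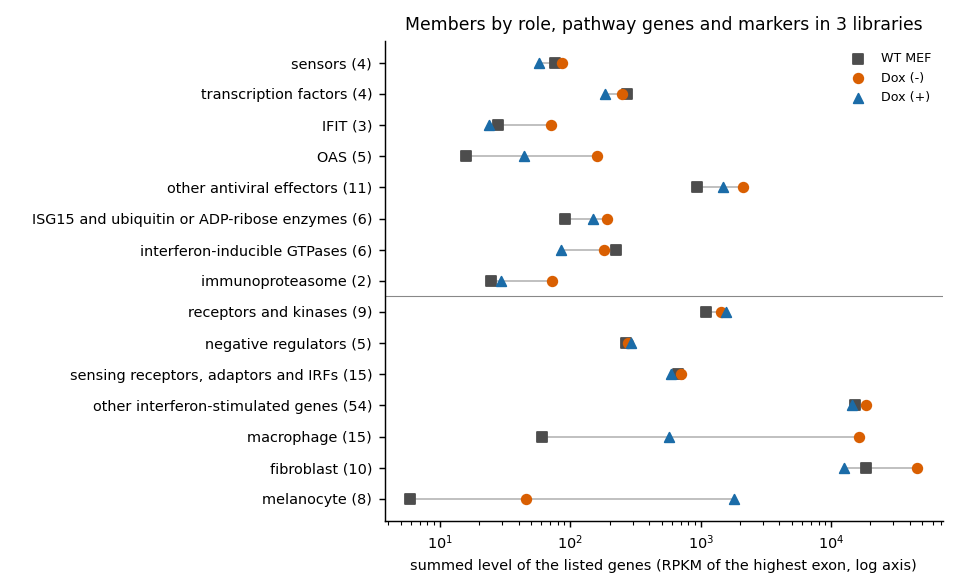
Summed level of the highest exons (RPKM, log axis) of the members by role, above the line, and of pathway genes and markers below it, with 1 point per library and the number of genes found in parentheses. The macrophage markers span 60.2 to 16422 RPKM, while the receptors and kinases span 1100 to 1568 RPKM.

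Values of other cell types stood beside these differences. The macrophage markers Lyz2, at 27.9 RPKM in WT MEF, 10820 in Dox (-) and 379 in Dox (+), and Csf1r, at 8.10, 342 and 11.0, were highest in Dox (-), as most members were. The 10 fibroblast markers summed to 18537, 45848 and 12507 RPKM, most of it from the collagen genes, and did not move together. In Dox (+) against Dox (-) 7 were lower, 4 of them called (Col1a1, Col1a2, Col3a1 and Lum), against 5.41% of all genes. The other 3 were higher but not called, with Thy1 at 2014 RPKM in Dox (-) and 3608 in Dox (+), Prrx1 at 336 and 474, and Twist1 at 79.7 and 89.9. Against WT MEF, 4 (Dcn, Lum, Prrx1 and Thy1) were called higher in Dox (+) and 0 lower, against 6.55% and 3.4% of all genes. Lum passed 10 RPKM in Dox (+) alone and could be called in 1 direction only. The lymphoid and plasmacytoid markers found summed to at most 1.10 RPKM in any library, with Nkg7 at 0 in WT MEF. The 6 epithelial markers summed to 61.2, 9.54 and 33.6 RPKM, lowest in Dox (-), with Krt14 at 32.8, 2.12 and 26.9 and Cdh1 at 21.7, 1.08 and 0.697. The 4 endothelial markers summed to 1.15, 12.9 and 4.78 RPKM, most of it Kdr, with Tie1 at 0 in WT MEF and Dox (+). The 8 melanocyte markers summed to 5.90, 45.5 and 1808 RPKM. Mitf was the largest part in both knock-in libraries, and Pmel, at 3.70 RPKM, in WT MEF. Among 9 housekeeping genes, 2 were above 2-fold higher in Dox (+) than in Dox (-) and 1 lower. The part of these markers in the levels of the interferon-stimulated genes was not tested.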

How the data were processed

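RNA was sequenced from wild-type MEFs, untreated and Dox-treated Mitf knock-in MEFs and primary melanocytes. Per the study's methods, libraries were made with the TruSeq v2 kit, aligned to mm10 with TopHat2 2.0.10 and counted per Ensembl exon with bedtools. The values deposited by the authors are RPKM per exon. Strand, reads with several alignments and the choice of listed exons are not given in the sources used here. Columns were assigned to libraries by name, and 1 column of values matched no label and was not used.

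Of 234718 exons, 228132 were matched to GENCODE M21 (mm10) and 6586 were not. Coding, pseudogene and lincRNA genes were kept. A gene's level was its highest exon. Log2 fold changes used a pseudocount of 1 RPKM and so understate low genes, and calls used none. Reads were recovered as RPKM × length × depth, with a whole-number depth searched between 20 and 80 in units of the RPKM scale. Values under 200 reads came out whole within 0.02 for 97.2% in WT MEF, 97% in Dox (-) and 96.9% in Dox (+). Reads were summed over non-overlapping exons, folds were given with exact conditional binomial intervals, and the floor was 3 reads. Whether a read that crosses exons was counted in each of them is not given in the sources used here. If it was, the sums hold that read more than 1 time and the intervals are too narrow. Summed reads, last exons and exon position were added after the data were seen. No count model was run, since there was 1 library per condition.

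The members and lists were chosen with earlier results of these data known. Every member was named, and from the other lists the receptors and kinases, the genes of highest level and genes called in a comparison. Some genes named from the sensing, regulator and marker lists were chosen after their values were seen. Some genes of these lists are not reported here. Calls, depths and intervals were tested on simulated data with 200 changed genes. Python 3.11.15, pandas 2.3.3, NumPy 2.4.6, SciPy 1.17.1 and matplotlib 3.10.9 were used.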

Additional observations from a re-analysis of the deposited data

How the results depend on the processing

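The counts and medians of the members were computed under 9 alternatives, 2 of them (summed reads and the last exon) chosen after seeing the data. In Dox (+) against Dox (-), where 8 members were lower and 0 higher, 0 were higher under every alternative run, and the number lower was 17 above 2-fold, 2 above a level of 30 RPKM, 16 on summed reads and 15 on the last exon. The median of -0.98 was -1.18 with 1 common exon per gene, -1.19 with the libraries rescaled to a common median, -1.52 on summed reads and -1.57 on the last exon. In Dox (-) against WT MEF, where 6 were higher and 0 lower, the number higher was 17 above 2-fold, 1 above 30 RPKM and 14 on summed reads, and 1 was lower above 2-fold. The median of 1.13 was 0.81 with a pseudocount of 5 RPKM and 1.52 on summed reads. In Dox (+) against WT MEF, where 0 were higher and 1 lower, 3 were higher and 4 lower above 2-fold, and 1 was higher with 1 common exon or on the last exon. The median of -0.18 was -0.45 after rescaling. The other 41 of 60 summary values stayed within 1.5 times the count or within the counting error of a member, and no called member changed direction. Of the 41 members, 38 were below 0 under every setting in Dox (+) against Dox (-), the exceptions being Irf1, Ifi35 and Trim25. The higher level threshold leaves fewer genes to test, and the causes of the other differences were not tested.

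Planned comparisons with primary melanocytes were not run, because no column of values carries a name that matches that library. No paired analysis was possible because each group has 1 library. Counting error limits members with few reads, such as Oasl1, Oas3 and Mx1, and with 1 library per condition the spread between cultures cannot be estimated.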

Other observations

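Gene families outside the 41 members, from the list of further interferon-stimulated genes and chosen after their values were seen, had several orders of the libraries. The schlafen genes, regulators of growth in lymphoid and myeloid cells, stood with most members. Slfn2 was at 4.60 RPKM in WT MEF, 41.8 in Dox (-) and 8.52 in Dox (+), Slfn8 at 51.9, 385 and 22.7 RPKM, and Slfn9 at 59.3, 193 and 15.2 RPKM. Slfn8 had only 80, 522 and 36 summed reads, so its high level can only come from a short exon and does not give its abundance. Slfn9 had 731, 1483 and 168 summed reads. The schlafens are close in sequence, and sharing of reads between them was not tested. The p200 family, which binds DNA, was mixed in size. Ifi204 was at 178, 523 and 378 RPKM, Ifi203 at 508.5, 1014 and 707 RPKM, and Ifi205 at 53.6, 78.5 and 59.9 RPKM. Ifi207 was at 16.9, 94.2 and 38.5 RPKM, called higher in Dox (-) than in WT MEF. All 4 were highest in Dox (-).

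The order of Irgm1 was seen in a few other genes. The GTPase gene Tgtp1, whose reads are uncertain because of the near-identical copy Tgtp2, was at 40.6 RPKM in WT MEF, 37.0 in Dox (-) and 6.41 in Dox (+), and Samhd1, which depletes nucleotides, at 256.5, 92.0 and 57.7 RPKM. Psme1, a proteasome activator, stood at 594, 295 and 429.5 RPKM, and the exonuclease gene Isg20 at 53.2, 15.2 and 21.4 RPKM, both lowest in Dox (-). Pml, the scaffold of nuclear bodies, was at 35.6, 64.2 and 102 RPKM and, like Trim25 on its highest exon, highest in Dox (+).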
